A study of Homo sapiens with 27 samples.

Results

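The histone genes were followed through 3 human cancer cell lines given SGX-523, which blocks the kinase of the receptor MET. Members were all rows of the expression table whose platform symbol begins with H1-, H2AC, H2BC, H3C or H4C (or an older HIST1 to HIST4 name), or is H2AX, H2AZ1, H3-3A or H3-3B. Most of these genes lie in the replication-dependent clusters, while others, such as H1-10, lie outside them. Of 49395 probe sets, 136 matched. The probe set of H1-10-AS1, an antisense RNA gene, was set aside, which left 135 members. Of these, 120 name 1 histone gene (68 genes in all), 13 name several genes and 2 name the pseudogenes H1-9P and H2BC20P. The labels call EBC-1, from a non-small cell lung tumour, and MKN-45, from a gastric tumour, addicted to MET. HCC827, also from a non-small cell lung tumour, is their negative control: its c-Met is active, but its growth does not hang on it. Cells were kept in 1 uM SGX-523 through 24 h or through 48 h, or in DMSO alone. Each of the 9 groups has 3 arrays, called biological replicates. No time is given for DMSO, so both times of a line were set against the same 3 DMSO arrays.

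Histones are the proteins around which DNA is wound. Pairs of H2A, H2B, H3 and H4 form the core of the nucleosome, and the linker histone H1 sits on the DNA between nucleosomes. Most of their genes lie in clusters, have no introns, and are transcribed in S phase, when new DNA must be packed. Their mRNA normally ends in a stem-loop held by SLBP instead of a poly(A) tail. The variant genes H2AX, H2AZ1, H3-3A and H3-3B lie outside the clusters, and H2AZ1, H3-3A and H3-3B give polyadenylated mRNA outside S phase too. Some clustered genes, among them H1-2, H2AC6, H2BC4, H2BC5, H2BC12 and H2BC21, are known to also give polyadenylated transcripts in cells that leave the cycle or differentiate. The labelling kit used here primes at the 3′ end of polyadenylated RNA, which favours polyadenylated forms over stem-loop forms.

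Many H2A and H2B genes stand head to head and share the DNA between their start sites, so the stretches below are shown because the genes at their ends moved together in some pairs and apart in 1. Sequences are from RefSeq (build GRCh38.p14), written 5′ to 3′, and stop at the start sites. Pairs are given on the plus strand, which is the strand of the H2A gene, and single genes on their own strand over the 250 bases before the start. Capitals mark the motifs CCAAT (the CCAAT box), TATAA (the core of the TATA box) and ATTTGCAT (the octamer), each sought on both strands. TTATAA holds TATAA on both strands.
Between H2BC21 and H2AC20 (chr1:149886683-149886917, plus strand): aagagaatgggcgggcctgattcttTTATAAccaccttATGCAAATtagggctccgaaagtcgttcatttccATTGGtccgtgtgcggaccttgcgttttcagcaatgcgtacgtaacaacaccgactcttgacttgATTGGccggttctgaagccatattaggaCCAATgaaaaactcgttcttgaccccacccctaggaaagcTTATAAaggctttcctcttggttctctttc
Between H2BC4 and H2AC6 (chr6:26123927-26124171, plus strand): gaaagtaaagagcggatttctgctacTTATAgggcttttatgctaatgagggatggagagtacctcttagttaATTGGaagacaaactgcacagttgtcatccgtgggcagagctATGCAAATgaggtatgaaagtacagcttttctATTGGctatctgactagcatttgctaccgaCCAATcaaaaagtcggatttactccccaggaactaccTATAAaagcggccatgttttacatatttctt
Between H2BC8 and H2AC8 (chr6:26216689-26216920, plus strand): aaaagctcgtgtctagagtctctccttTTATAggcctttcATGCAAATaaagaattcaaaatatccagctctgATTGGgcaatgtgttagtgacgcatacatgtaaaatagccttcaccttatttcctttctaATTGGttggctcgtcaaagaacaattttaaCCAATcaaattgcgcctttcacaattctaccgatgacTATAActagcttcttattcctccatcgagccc
H2AX (chr11:119095466-119095715, minus strand): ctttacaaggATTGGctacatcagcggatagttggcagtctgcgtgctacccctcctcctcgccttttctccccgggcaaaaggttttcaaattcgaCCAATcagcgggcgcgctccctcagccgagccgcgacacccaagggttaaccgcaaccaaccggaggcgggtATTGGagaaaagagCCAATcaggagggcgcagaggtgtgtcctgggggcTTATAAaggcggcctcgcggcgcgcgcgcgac
H2AZ1 (chr4:99950276-99950525, minus strand): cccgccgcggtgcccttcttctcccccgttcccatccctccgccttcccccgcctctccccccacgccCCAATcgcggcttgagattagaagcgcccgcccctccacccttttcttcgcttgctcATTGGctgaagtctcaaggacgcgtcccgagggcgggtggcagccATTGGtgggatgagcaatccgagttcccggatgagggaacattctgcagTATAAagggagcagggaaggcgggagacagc
H2BC5 (chr6:26157871-26158120, plus strand): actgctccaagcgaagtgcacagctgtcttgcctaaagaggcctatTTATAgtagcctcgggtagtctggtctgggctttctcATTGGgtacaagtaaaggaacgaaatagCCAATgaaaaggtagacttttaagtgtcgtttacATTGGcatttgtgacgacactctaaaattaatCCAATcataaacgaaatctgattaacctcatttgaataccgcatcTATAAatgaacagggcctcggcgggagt
H1-2 (chr6:26056471-26056720, minus strand): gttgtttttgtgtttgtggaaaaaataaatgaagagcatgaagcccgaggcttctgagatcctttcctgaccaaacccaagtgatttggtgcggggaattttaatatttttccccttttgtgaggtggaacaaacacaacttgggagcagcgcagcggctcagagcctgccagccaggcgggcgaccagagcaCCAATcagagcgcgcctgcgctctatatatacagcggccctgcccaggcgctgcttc
The stretch between H2BC21 and H2AC20 is 235 bases long, that between H2BC4 and H2AC6 245, and that between H2BC8 and H2AC8 232. A window was found for 71 of the 76 member genes. CCAAT stood in 60 of the 71 (84.5%), against 32% of all 35116 RefSeq windows of this length. TATAA stood in 64 (90.1%, against 18.9%). The octamer stood in 27 (38%, against 1.63%), of which 25 were among the 34 H2A and H2B genes. These are matches of letters and not measured binding sites.

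Deposited log2 values ran from 1.87 to 14.38, and array medians were 5.02 to 5.14 in EBC-1 and MKN-45. They were 5.71 to 5.73 in HCC827, whose arrays seem to have been scaled apart, so levels are not compared between HCC827 and the other lines. The HCC827 SGX-523 24 h replicate 3 stood apart, with a residual SD of 0.43 against at most 0.125 on arrays outside its group. The epithelial markers EPCAM, KRT8, KRT18 and KRT19 were at or above the array median on all 27 arrays, CDH1 on 18, the leukocyte genes PTPRC and CD3E and the fibroblast genes COL1A1 and COL3A1 on 0, CD14 on 9 and PDGFRB on 22. With SGX-523, 42 spiked-in control probe sets were higher by a median of 0.27 to 0.39 log2 units in EBC-1 and MKN-45. The 3′ minus 5′ difference of the ACTB control probe sets, in log2 units, was 3.36 with DMSO, 3.76 at 24 h and 3.89 at 48 h in EBC-1, 3.53, 3.68 and 4.16 in MKN-45, and 2.08, 2.65 and 2.33 in HCC827 (exact permutation p = 0.1 for each time and line, two-sided, the smallest that 3 against 3 arrays allow). In HCC827 at 24 h the 3 arrays had 2.29, 2.24 and 3.40, the last on the array that stood apart. For GAPDH the same difference was 0.36, 0.39 and 0.45 in EBC-1, 0.34, 0.40 and 0.56 in MKN-45, and 0.14, 0.16 and 0.13 in HCC827. Its exact permutation p at 24 h and 48 h was 0.2 and 0.1, 0.3 and 0.1, and 0.2 and 0.7. The part of these 3′ minus 5′ differences in the histone values was not tested. Results under centring on the spiked-in controls are given for the main counts and for part of the calls that they change.

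Of the 135 members, 55 reached the median of their array on at least 3 of the 27 arrays and were tested (46 naming 1 gene, for 27 genes, and 9 naming several). They were 3 of 13 H1 probe sets, 13 of 29 H2A, 12 of 41 H2B, 7 of 19 H3, 7 of 19 H4, the H2AX probe set, 4 of 4 of H2AZ1 and 8 of 9 of H3.3. Of the 55, 29 were at or above the median on every array. A member that passed only through the group where it was high had to differ, so the counts below describe these probe sets and do not speak for all members. Of the 55, 37 carry a platform suffix for probes shared by several transcripts or liable to cross-hybridise. Histone genes of one class are near-identical in their coding parts, so such a signal may hold RNA of a sister gene. Unless stated otherwise, a difference is the mean log2 value with SGX-523 less that with DMSO, given ± its SE, and every group has n = 3. To be called, a probe set needed an adjusted p under 0.05 in limma, with the Benjamini-Hochberg adjustment run over the 29694 kept probe sets. In bulk RNA, fewer cells with a transcript and less of it per cell cannot be told apart.

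In both lines that depend on MET, most of the tested H2A and H2B probe sets rose with SGX-523, while H2AX, H2AZ1, H4C3 and H2AC20 fell. Of 13 H2A probe sets tested, 10 and 12 were called higher in EBC-1 at 24 h and 48 h, and 11 and 10 in MKN-45. Of 12 H2B, they were 10 and 11 in each line (background in the same order 28.6%, 29.4%, 29.8% and 31.5%). Of the 55, 8, most of them H2A or H2B, reached the array median only on SGX-523 arrays of these lines, so they had to differ. In EBC-1 at 24 h, 13 of 55 were called lower and 29 higher, against 27.8% and 28.6% of all probe sets. At 48 h they were 15 lower (background 29.5%) and 33 higher (29.4%). In MKN-45 they were 8 lower (25.8%) and 38 higher (29.8%) at 24 h, and 11 lower (26.8%) and 35 higher (31.5%) at 48 h. The median difference of the 55 was 0.29 and 0.38 in EBC-1 and 0.51 and 0.53 in MKN-45, with that of all probe sets between 0.02 and 0.04. Among the 29 above the median on every array the split was 11 lower and 13 higher at 24 h and 11 and 14 at 48 h in EBC-1, and 7 and 20, then 7 and 18, in MKN-45. The shares among all probe sets above the median on every array were not counted, so these splits have no background of their own. Centring on the spiked-in controls moved the median of all probe sets by 0.27 to 0.39 downwards. The member split in EBC-1 then became 18 lower (45.2% of all probe sets) and 23 higher (13.9%) at 24 h, and 20 (51.4%) and 20 (12.5%) at 48 h. In MKN-45 it became 10 lower (42.8%) and 28 higher (14.4%) at 24 h, and 14 (42.3%) and 29 (17.3%) at 48 h. In HCC827 at 24 h, no member was called (background 0% lower, 0.00337% higher), though 14 of 55 had an unadjusted p under 0.05. The share of all probe sets under that unadjusted threshold was not counted, so nothing is read from the 14. In HCC827 at 48 h, 1 was called lower (8.46%) and 3 higher (8.57%).

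**Figure D1:**
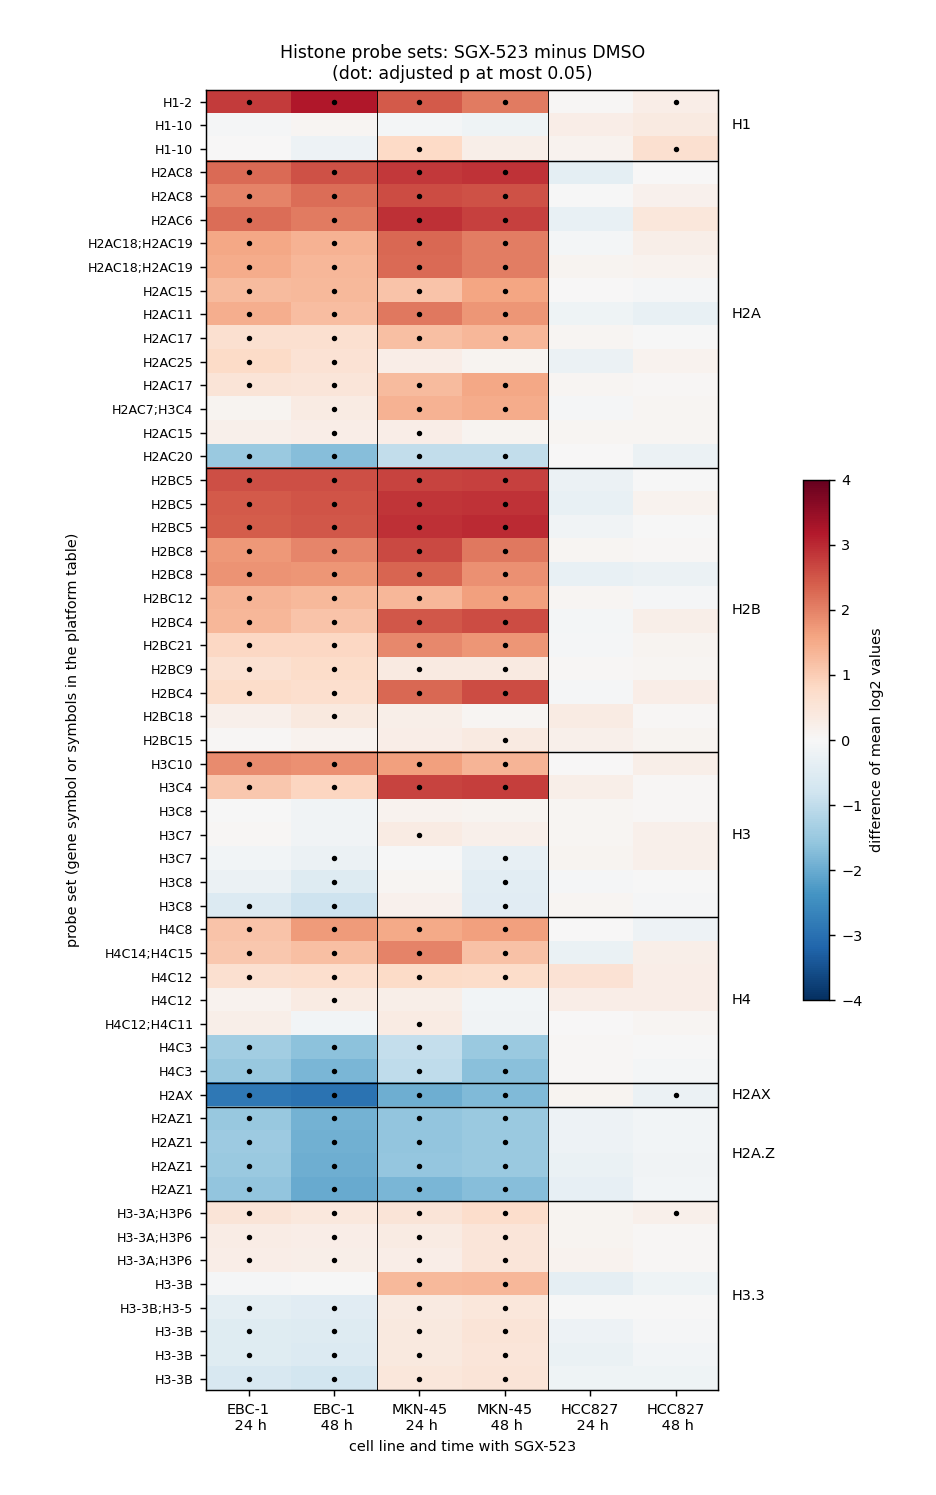
Difference of mean log2 values, SGX-523 minus DMSO, for the 55 tested histone probe sets (rows, by class) in 3 lines at 24 h and 48 h (columns); red is higher, blue lower, and a dot marks an adjusted p under 0.05. The H2A and H2B blocks are mostly red in EBC-1 and MKN-45, with H2AC20 as the blue row, H2AX and the 4 H2AZ1 rows are blue, and the H3-3B rows, but for 1, change colour between the lines.

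Across all 4 comparisons of EBC-1 and MKN-45, 28 of 55 probe sets were called higher each time, as were 15% of all probe sets. They came from H1-2, H2AC6, H2AC8, H2AC11, H2AC15, H2AC17, H2AC18 with H2AC19, H2BC4, H2BC5, H2BC8, H2BC9, H2BC12, H2BC21, H3C4, H3C10, H4C8, H4C12, H4C14 with H4C15, and H3-3A with H3P6. These include every class but H2AX and H2A.Z. Of the 28, 7 were at or above the array median only on arrays of EBC-1 or MKN-45 with SGX-523, so they had to differ to be tested: 2 probe sets of H2AC17 and 1 each of H2AC15, H2BC4, H2BC8, H2BC9 and H4C8. The 8 called lower each time, as were 14.9% of all probe sets, belonged to H2AX (1), H2AZ1 (4), H4C3 (2) and H2AC20 (1). Under centring on the spiked-in controls 20 were higher in all 4 (5.33% of all probe sets) and 10 lower (26.1%). Those that left the first group were probe sets of H2AC17, H2BC4, H2BC9, H4C12 and H3-3A with H3P6, and 1 probe set each of H1-10 and H3C7 joined the second.

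H2AX, the H2A variant that is phosphorylated around DNA double-strand breaks, fell furthest of the members. In EBC-1 its log2 values were 11.47, 11.41 and 11.43 with DMSO, 8.48, 8.57 and 8.66 at 24 h, and 8.50, 8.44 and 8.50 at 48 h. In MKN-45 they were 11.93, 11.90 and 11.88 with DMSO, 9.85, 9.90 and 10.08 at 24 h, and 10.19, 10.15 and 10.04 at 48 h. Every treated array lay below every DMSO array of its line. The differences were -2.86 ± 0.07 in EBC-1 at 24 h (7.28-fold lower, limma adjusted p = 5.55e-20) and -2.96 ± 0.07 at 48 h (adjusted p = 1.59e-20). In MKN-45 they were -1.96 ± 0.07 (adjusted p = 4.95e-17) and -1.78 ± 0.07 (adjusted p = 2.39e-16). H2AX fell further in EBC-1 than in MKN-45, with a gap of -0.90 log2 units at 24 h and -1.18 at 48 h (adjusted p = 1.09e-07 and 8.85e-10). In HCC827 the values were 12.39, 12.36 and 12.28 with DMSO and 12.11, 12.05 and 12.18 at 48 h, which do not overlap. The difference was -0.23 ± 0.07 (limma adjusted p = 0.0232), and this call was lost with centring on the spiked-in controls.

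H2AZ1 encodes H2A.Z, a variant placed at promoters by chromatin remodellers of the INO80 family. By its brightest probe set, EBC-1 had 12.60, 12.58 and 12.63 with DMSO, 11.10, 11.17 and 11.17 at 24 h, and 10.67, 10.57 and 10.78 at 48 h. MKN-45 had 12.07, 12.02 and 11.97 with DMSO, 10.48, 10.45 and 10.38 at 24 h, and 10.56, 10.51 and 10.48 at 48 h. Treated and DMSO arrays did not overlap in either line. The difference was -1.45 ± 0.10 and then -1.93 ± 0.10 in EBC-1 (3.8-fold lower at 48 h, adjusted p = 4.86e-14), and -1.58 ± 0.10 and -1.50 ± 0.10 in MKN-45 (adjusted p = 5.68e-12 at 48 h). The other 3 H2AZ1 probe sets were called lower in the same 4 comparisons, between -1.47 and -2.01. In EBC-1 H2AZ1 fell on from 24 h to 48 h, by 0.47 ± 0.10 (adjusted p = 0.00326), and 3 of its 4 probe sets were called in that comparison. In HCC827 none of the 4 was called.

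H1-2, a linker histone, rose furthest of the members in EBC-1. Its values there were 7.78, 7.71 and 7.75 with DMSO, 10.48, 10.56 and 10.57 at 24 h, and 10.97, 10.93 and 10.93 at 48 h. In MKN-45 they were 8.70, 8.86 and 8.63 with DMSO, 11.13, 11.21 and 11.18 at 24 h, and 10.78, 10.84 and 10.77 at 48 h. All treated arrays lay above all DMSO arrays, and the order of the times was reversed between the lines. The differences were 2.79 ± 0.07 and 3.20 ± 0.07 in EBC-1 (9.17-fold at 48 h, adjusted p = 5.19e-21) and 2.45 ± 0.07 and 2.07 ± 0.07 in MKN-45 (adjusted p = 1.68e-17 at 48 h). Between 24 h and 48 h it rose by 0.41 ± 0.07 in EBC-1 (adjusted p = 0.000412) and fell by 0.38 ± 0.07 in MKN-45 (adjusted p = 0.000392). The same probe set was called higher in HCC827 at 48 h, at 8.27, 8.35 and 8.15 against 8.01, 8.01 and 7.96, a difference of 0.26 ± 0.07 (adjusted p = 0.0115).

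H2BC5, a clustered H2B gene with its own stretch above, rose furthest of the members in MKN-45. EBC-1 had 9.49, 9.40 and 9.43 with DMSO, 11.78, 11.88 and 11.91 at 24 h, and 11.87, 11.90 and 11.99 at 48 h. MKN-45 had 9.10, 8.98 and 8.99 with DMSO, 11.97, 11.94 and 11.94 at 24 h, and 11.97, 11.98 and 12.04 at 48 h. The treated arrays of both lines came to lie within a narrow range, above every DMSO array. The differences were 2.42 ± 0.10 and 2.48 ± 0.10 in EBC-1 and 2.93 ± 0.10 and 2.98 ± 0.10 in MKN-45 (7.87-fold at 48 h, adjusted p = 2.52e-17). The rise was smaller in EBC-1 than in MKN-45 at both times (-0.51 and -0.49, adjusted p = 0.00819 and 0.0085). Its other 2 probe sets rose by 2.46 to 2.90 in all 4 comparisons.

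The H2AC8 gene, which encodes H2A, stands head to head with H2BC8. For H2AC8, EBC-1 had 7.49, 7.51 and 7.70 with DMSO, 9.81, 9.84 and 9.89 at 24 h, and 10.09, 10.11 and 10.20 at 48 h. MKN-45 had 6.92, 6.82 and 6.77 with DMSO, 9.50, 9.69 and 9.86 at 24 h, and 9.67, 9.72 and 9.83 at 48 h. No treated array overlapped a DMSO array. The differences were 2.28 ± 0.18 and 2.56 ± 0.18 in EBC-1 and 2.84 ± 0.18 and 2.90 ± 0.18 in MKN-45 (adjusted p = 1.87e-12 at 48 h). H2BC8 had 4.88, 5.05 and 5.08 with DMSO in EBC-1, 6.58, 6.86 and 6.73 at 24 h, and 6.92, 7.02 and 6.93 at 48 h. In MKN-45 it had 4.82, 4.55 and 4.68 with DMSO, 7.55, 7.23 and 7.16 at 24 h, and 6.89, 6.84 and 6.69 at 48 h. H2BC8 thus started about at the array median or below it, where the size of a rise is less certain than its direction. Its differences were 1.72 ± 0.14, 1.96 ± 0.14, 2.63 ± 0.14 and 2.12 ± 0.14 in the same order (adjusted p at most 1.07e-10). From 24 h to 48 h it fell by 0.51 ± 0.14 in MKN-45 (adjusted p = 0.00956).

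H2AC6 and H2BC4 form the second head-to-head pair in which both genes rose. H2AC6 had 6.63, 6.69 and 6.78 with DMSO in EBC-1, 8.89, 8.89 and 9.03 at 24 h, and 8.75, 8.78 and 8.85 at 48 h. MKN-45 gave 6.46, 6.28 and 6.0 with DMSO, 9.09, 9.32 and 9.08 at 24 h, and 9.06, 9.10 and 8.73 at 48 h. The groups did not overlap in either line. The differences were 2.24 ± 0.20 and 2.09 ± 0.20 in EBC-1 and 2.92 ± 0.20 and 2.72 ± 0.20 in MKN-45 (adjusted p at most 1.92e-09). H2BC4 had 4.77, 4.66 and 4.40 with DMSO in EBC-1, 5.92, 5.99 and 5.93 at 24 h, and 5.57, 5.92 and 5.75 at 48 h. In MKN-45 the values were 4.82, 5.16 and 5.12 with DMSO, 7.43, 7.58 and 7.52 at 24 h, and 7.58, 7.64 and 7.69 at 48 h. With DMSO, H2BC4 lay below the array median in EBC-1 and about at it in MKN-45, where the size of a rise is less certain than its direction. Here the lines parted. H2BC4 rose by 1.34 ± 0.12 and 1.14 ± 0.12 in EBC-1 and by 2.48 ± 0.12 and 2.60 ± 0.12 in MKN-45, and the difference between lines was called at both times (-1.14 and -1.47, adjusted p = 1.25e-05 and 2.65e-07). For H2AC6 that difference was not called at either time.

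H2AC20 fell while H2BC21, which shares its stretch of 235 bases, rose. H2BC21 was singled out, as the partner of H2AC20, after its values were seen. H2AC20 had 6.72, 6.98 and 6.86 with DMSO in EBC-1, 5.54, 5.58 and 4.96 at 24 h, and 5.03, 5.13 and 5.34 at 48 h. The MKN-45 arrays gave 7.15, 7.11 and 7.21 with DMSO, 6.23, 6.21 and 6.04 at 24 h, and 6.0, 6.19 and 6.25 at 48 h. All treated arrays lay below all DMSO arrays. The differences were -1.49 ± 0.15 and -1.69 ± 0.15 in EBC-1 and -1.0 ± 0.15 at both times in MKN-45 (adjusted p at most 2.77e-06). H2BC21 had 6.30, 6.25 and 6.37 with DMSO in EBC-1, 7.11, 7.21 and 7.09 at 24 h, and 7.09, 7.12 and 7.23 at 48 h. In MKN-45 it had 5.53, 5.68 and 5.52 with DMSO, 7.36, 7.57 and 7.59 at 24 h, and 7.38, 7.29 and 7.33 at 48 h. All treated arrays of H2BC21 lay above all DMSO arrays, with differences of 0.83 ± 0.09 and 0.84 ± 0.09 in EBC-1 and 1.93 ± 0.09 and 1.76 ± 0.09 in MKN-45 (adjusted p at most 1.84e-08). Neither probe set has a suffix for cross-hybridising probes. Both directions held under each of the 3 other scalings. In HCC827 neither gene was called.

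**Figure D2:**
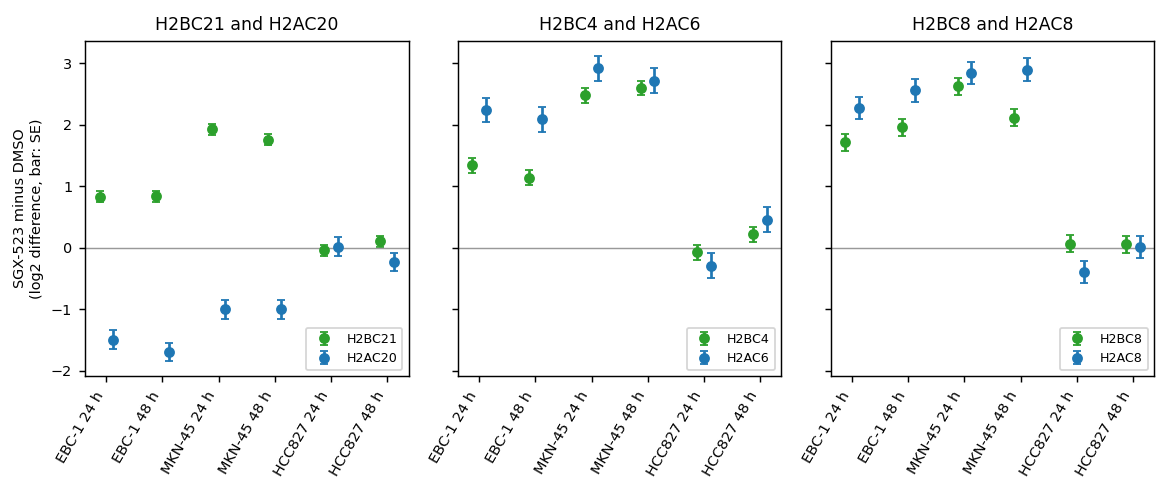
Difference of mean log2 values with SE (vertical axis) in 6 comparisons of SGX-523 with DMSO (horizontal axis) for 3 pairs of genes that share the DNA between their start sites; green is the H2B gene and blue the H2A gene, with n = 3 arrays per group. H2BC21 lies above 0 and H2AC20 below it in EBC-1 and MKN-45, while both genes of the other pairs lie above 0 there.

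Of 13 head-to-head pairs of member genes with less than 1000 bases between start sites, 5 had both genes tested. Besides the 3 pairs above, H2AC15 and H2BC15 lie 193 bases apart. By their brightest probe sets their differences were at most 0.28 and 0.35. The second H2AC15 probe set, one of the 7 above, had DMSO means of 3.87 in EBC-1 and 3.75 in MKN-45, below the array median, and no size is read from it. H3C7 and H2BC9 lie 978 bases apart. At 48 h H3C7 was called lower and H2BC9 higher in both lines, so this pair moved apart there too. H2BC9 is among those 7 and had to differ to be tested, and the limits of the H3C7 calls are given below. For the motif counts by direction, a gene was taken if any of its probe sets was called in that direction in all 4 comparisons. H2AC15, H2AC17, H2BC9 and H4C8 entered only through probe sets among those 7, which had to differ to be tested. The octamer stood in 10 of the 16 single-gene members with a window that were higher in all 4 comparisons, and in 1, H2AC20, of the 3 that were lower. CCAAT stood in 14 of those 16 and in all 3, and TATAA in 15 of the 16 and in all 3. Windows of head-to-head genes overlap, so a site in a shared stretch counts for both genes. The stretch of H2AC20 and H2BC21, which moved apart, holds 1 octamer, so the octamer had to be found in both directions. For both reasons, nothing on direction is read from these counts.

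H4C3, a clustered H4 gene, was the only H4 gene called lower with SGX-523. By the brighter of its 2 probe sets, EBC-1 had 12.87 on each DMSO array, 11.49, 11.52 and 11.47 at 24 h, and 11.20, 11.22 and 11.26 at 48 h. MKN-45 had 12.93, 12.97 and 12.97 with DMSO, 11.99, 12.01 and 12.02 at 24 h, and 11.43, 11.59 and 11.39 at 48 h. The 3 groups of each line were separate from one another. The differences were -1.38 ± 0.04 and -1.64 ± 0.04 in EBC-1 and -0.95 ± 0.04 and -1.48 ± 0.04 in MKN-45 (adjusted p at most 3.15e-15). It fell further between 24 h and 48 h in both lines, by 0.26 ± 0.04 (adjusted p = 0.000168) and 0.54 ± 0.04 (adjusted p = 2.47e-09). The other H4 probe sets were called higher or not called in the comparisons with DMSO in EBC-1 and MKN-45. The probe set of H4C14 and H4C15 rose by 1.09 ± 0.16 to 1.98 ± 0.16 in the 4 comparisons. H4C8, with DMSO means of 4.09 and 3.45, passed the filter only through treated arrays, and no size is read from it. One H4C12 probe set rose by 0.65 to 0.75 in all 4, and another was called only in EBC-1 at 48 h (0.34 ± 0.13, adjusted p = 0.03).

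Of the clustered H3 genes, H3C10 and H3C4 rose. H3C10 had 4.37, 4.14 and 4.22 with DMSO in EBC-1, 6.25, 6.07 and 6.09 at 24 h, and 6.04, 6.06 and 6.16 at 48 h. MKN-45 gave 5.09, 5.17 and 4.64 with DMSO, 6.52, 6.46 and 6.78 at 24 h, and 6.41, 6.41 and 6.11 at 48 h. It rose from below the array median in EBC-1, by 1.89 ± 0.19 and 1.84 ± 0.19, and in MKN-45 by 1.63 ± 0.19 and 1.35 ± 0.19 (adjusted p at most 1.2e-06), with no overlap between groups. H3C4 had 5.35, 4.70 and 5.28 with DMSO in EBC-1, 6.13, 6.33 and 6.16 at 24 h, and 5.95, 6.12 and 5.88 at 48 h. In MKN-45 the values were 5.26, 5.16 and 4.88 with DMSO, 7.59, 7.92 and 7.88 at 24 h, and 7.76, 7.85 and 7.93 at 48 h. The DMSO values of H3C4 lay about at the array median in both lines, where the size of a rise is less certain than its direction. From like DMSO values H3C4 rose by 1.09 ± 0.14 and 0.87 ± 0.14 in EBC-1 and by 2.70 ± 0.14 and 2.75 ± 0.14 in MKN-45, and the lines differed at both times (adjusted p = 8.29e-07 and 5.55e-08). H3C7 had 5.51, 5.43 and 5.46 with DMSO in EBC-1, 5.24, 5.39 and 5.41 at 24 h, and 5.23, 5.24 and 5.18 at 48 h. The MKN-45 arrays gave 5.42, 5.18 and 5.14, then 5.28, 5.22 and 5.21, then 4.98, 4.89 and 4.88. The 48 h arrays lay below the DMSO arrays in both lines and the 24 h arrays in EBC-1 only. The 48 h differences were -0.25 ± 0.09 (adjusted p = 0.0189) and -0.33 ± 0.09 (adjusted p = 0.00244). The EBC-1 call was lost without DMSO replicate 1 (-0.22, adjusted p = 0.064) or SGX-523 48 h replicate 3 (-0.23, adjusted p = 0.0582). The MKN-45 call was lost with the mean of the probe sets per gene (-0.06, adjusted p = 0.458). With centring on the spiked-in controls this probe set was also called lower at 24 h, in EBC-1 (-0.43, limma adjusted p = 0.00138) and MKN-45 (-0.31, adjusted p = 0.0173). The second H3C7 probe set was called only in MKN-45 at 24 h, and there it was higher (0.32 ± 0.11, adjusted p = 0.0199). Of the 3 H3C8 probe sets, 2 fell at 48 h in both lines, by 0.41 to 0.84. With DMSO these 2 lay about at the array median in EBC-1 and below it in MKN-45, where the size of a fall is uncertain. The other, the brightest, was called in no comparison with DMSO.

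H3-3B and H3-3A both encode H3.3, the H3 variant laid down outside replication by HIRA and by DAXX with ATRX. H3-3B moved in opposite directions in the lines. By its brightest probe set, EBC-1 had 13.19, 13.16 and 13.23 with DMSO, 12.71, 12.73 and 12.69 at 24 h, and 12.68, 12.66 and 12.66 at 48 h. MKN-45 had 12.36, 12.37 and 12.41 with DMSO, 12.80, 12.79 and 12.75 at 24 h, and 12.92, 12.86 and 12.89 at 48 h. Treated arrays lay below DMSO in EBC-1 and above it in MKN-45, with no overlap. The differences were -0.48 ± 0.08 (adjusted p = 8.65e-06) and -0.52 ± 0.08 (adjusted p = 2.66e-06) in EBC-1. They were 0.40 ± 0.08 (adjusted p = 0.000101) and 0.51 ± 0.08 (adjusted p = 3.8e-06) in MKN-45. The difference between the responses was -0.88 at 24 h and -1.03 at 48 h (adjusted p = 6.7e-07 and 4.09e-08). Another 2 H3-3B probe sets and the one shared with H3-5 were also lower in EBC-1 and higher in MKN-45 at both times, a pattern seen in 1.38% of all probe sets. The fourth H3-3B probe set was not called in EBC-1 (-0.06 and -0.01) and rose in MKN-45 by 1.29 ± 0.15 and 1.33 ± 0.15. With centring on the spiked-in controls, the fall in EBC-1 was -0.80 and -0.92, and the brightest probe set was no longer called in MKN-45 (0.10 and 0.24, adjusted p = 0.521 and 0.102). H3-3A was tested only through 3 probe sets that also match its pseudogene H3P6, and they rose by 0.24 to 0.53 in EBC-1 and by 0.28 to 0.69 in MKN-45. Under that same centring 2 of these 3 were below 0 in EBC-1 at 24 h (-0.05 and -0.03, not called), none of the 3 was called there at 48 h, and 1 was called in MKN-45 at 24 h, so their rise depends on the scaling at these times.

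**Figure D3:**
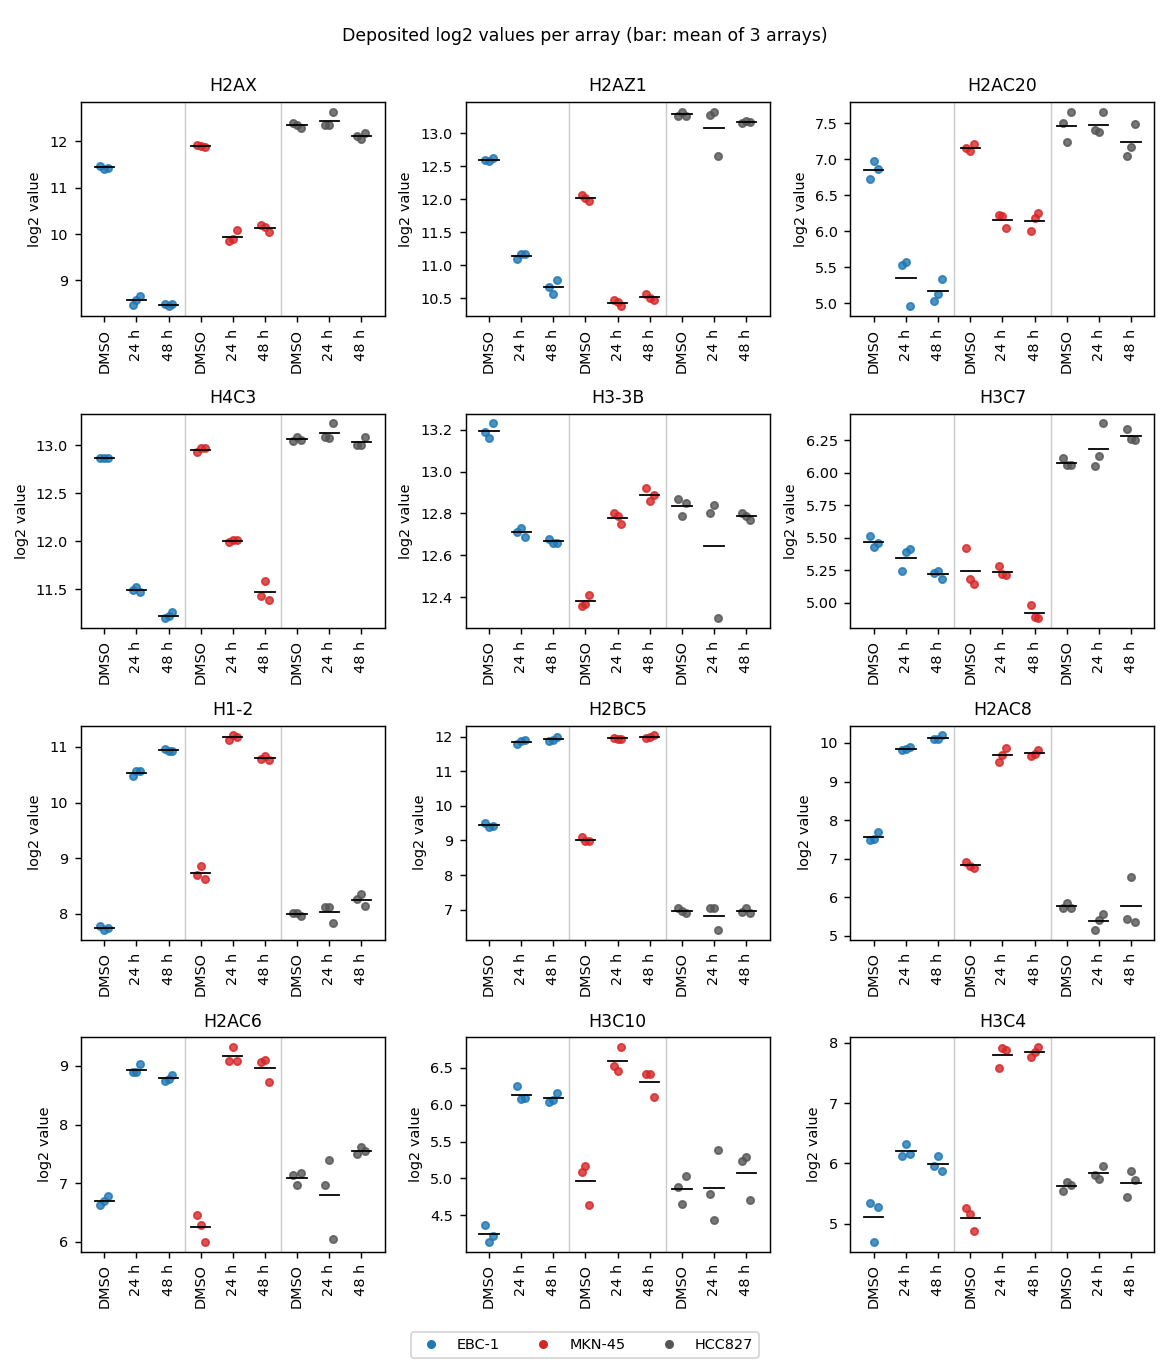
Deposited log2 values (vertical axes, each with its own range) of 12 histone genes on each of 27 arrays, by cell line (colour) and treatment (horizontal axis); points are arrays and bars are means of 3. H2AX, H2AZ1, H2AC20 and H4C3 drop in EBC-1 and MKN-45, H1-2, H2BC5, H2AC8, H2AC6, H3C10 and H3C4 climb, H3-3B goes down in EBC-1 and up in MKN-45, and HCC827, scaled apart, moves little.

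The 6 clustered genes known to give polyadenylated transcripts were represented by 9 tested probe sets, all called higher in all 4 comparisons, as were 15% of all probe sets. One of them, of H2BC4, passed the filter only through treated arrays. With centring on the spiked-in controls, 1 H2BC4 probe set was not called in EBC-1. The median differences of the 9 were 2.24 and 2.09 in EBC-1 and 2.48 and 2.62 in MKN-45. The gene not yet described, H2BC12, rose by 1.36 ± 0.05 and 1.30 ± 0.05 in EBC-1 and by 1.34 ± 0.05 and 1.63 ± 0.05 in MKN-45 (adjusted p at most 2.12e-16). Of the other 31 clustered probe sets tested, 17 and 21 were higher in EBC-1 at 24 h and 48 h (background 28.6% and 29.4%) and 4 and 6 lower (27.8% and 29.5%). In MKN-45 20 and 18 were higher (29.8% and 31.5%) and 3 and 6 lower (25.8% and 26.8%). Their medians were 0.60, 0.58, 0.75 and 0.74. The subset was named with results of these data known, so its count is no independent evidence.

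The responses of EBC-1 and MKN-45 differed for many members, and most of those called lay on one side. At 24 h the difference EBC-1 minus MKN-45 was called below 0 for 25 of 55 (background 19.8%) and above 0 for 1 (16.2%). At 48 h it was called below 0 for 27 (24.6%) and above 0 for 1 (17.7%). Probe sets of the same gene count more than once here, and the 27 include all 8 of H3.3 and 3 of 4 of H2AZ1. Of the 40 clustered probe sets tested, 18 were called below 0 at 24 h (45%) and 14 at 48 h (35%). Outside the subset with known polyadenylated transcripts, they were 14 of 31 (45.2%) and 9 of 31 (29%). Below 0 here means a smaller rise or a larger fall in EBC-1. Among them at 48 h were H3C4 (-1.88 ± 0.20) and H2BC4 by the probe set given above (-1.47). The member above 0 at both times was H1-2, at 0.34 ± 0.10 (adjusted p = 0.00846) and 1.13 ± 0.10 (adjusted p = 2.21e-09). With DMSO alone, 32 of 55 were called higher in EBC-1 than in MKN-45 (background 32.9%) and 7 lower (32.3%). The latter included H1-2 (-0.98 ± 0.07, adjusted p = 1.05e-11) and H2AX (-0.47 ± 0.07, adjusted p = 2.5e-06).

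**Figure D4:**
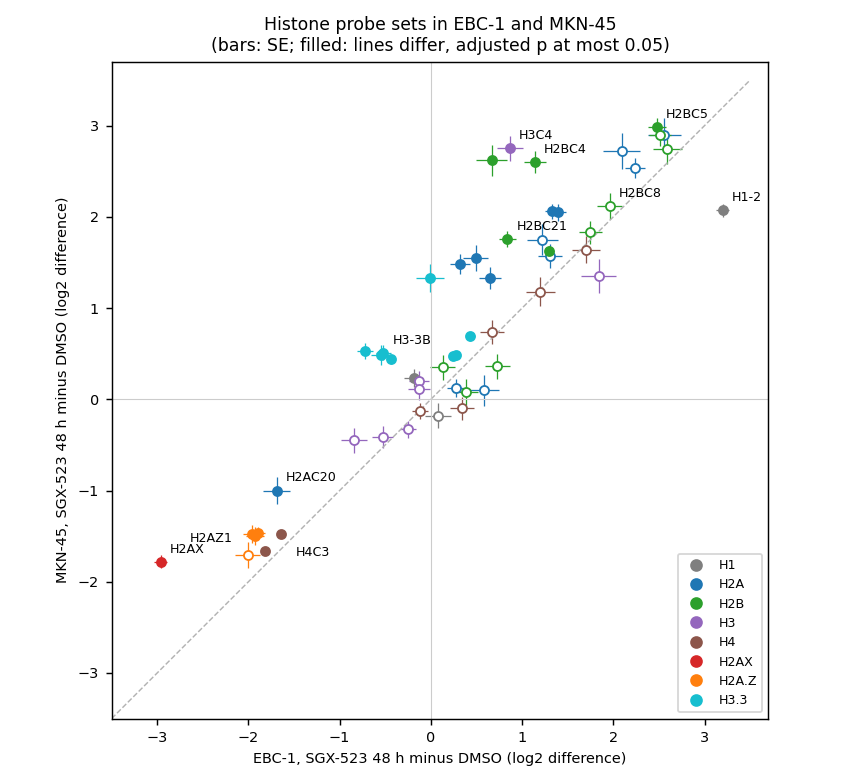
Difference of mean log2 values after 48 h of SGX-523 in EBC-1 (horizontal axis) and MKN-45 (vertical axis) for the 55 tested histone probe sets, coloured by class, with SE bars; filled points mark lines that differ at an adjusted p under 0.05, and the dashed line marks equal responses. Most filled points lie above the dashed line, H3-3B lies at the upper left, and H1-2 lies to the right of the line.

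The 48 h arrays were also set against the 24 h arrays. In EBC-1 6 of 55 were called lower (background 4.92%) and 2 higher (3.42%). In MKN-45 they were 11 (8.62%) and 5 (11%), and in HCC827 2 (7.51%) and 6 (14.1%). In MKN-45 the falls included H4C14 with H4C15 (-0.81 ± 0.16, adjusted p = 0.000844), H1-10 (-0.57 ± 0.10, adjusted p = 0.000204) and a probe set of H3C8 (-0.64 ± 0.14, adjusted p = 0.00145). That H3C8 probe set lay below the array median at both times. The brightest H3C8 probe set had 5.35, 5.69 and 5.44 at 24 h and 5.47, 5.34 and 5.56 at 48 h. The 5 that rose were H2BC12, H2AC15 and the 3 probe sets of H3-3A with H3P6. H1-10, a linker histone outside the clusters that was singled out after its values were seen, had 9.22, 9.16 and 9.15 with DMSO in MKN-45, between 9.91 and 10.03 at 24 h, and 9.41, 9.43 and 9.38 at 48 h. It was called only at 24 h there (0.80 ± 0.10, adjusted p = 2.72e-07, against 0.23 ± 0.10 at 48 h, adjusted p = 0.0558).

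In HCC827 the members called at 48 h were H1-10 (0.64 ± 0.10, adjusted p = 9.31e-05), H1-2, 1 probe set of H3-3A with H3P6 (0.19 ± 0.05, adjusted p = 0.0113) and, lower, H2AX. With centring on the spiked-in controls, 0 members were called lower at 48 h (background 2.02%) and 1 higher (5.69%), so most of these calls were lost under that centring. Quantile normalization gave 1 lower (8.84%) and 4 higher (9.42%), and centring on the array median 1 lower (8.76%) and 3 higher (7.94%). The median of the 55 was 0.01 at 24 h and 0.06 at 48 h in the fit reported. The array that stood apart belongs to the 24 h group but enters the shared spread. Without it, 8 were called lower and 10 higher at 48 h (background then 18.2% and 15.4%), and still 0 at 24 h. There 5 had an unadjusted p under 0.05, a count whose share over all probe sets is not known. Without replicate 1 or 2 of the 24 h group, which leaves that array as 1 of 2, calls also appeared at 24 h. Without replicate 1, 8 members were lower (background 19.6%) and 5 higher (5.52%), and without replicate 2, 12 were lower (20.5%) and 4 higher (5.64%). The response at 48 h differed from that of HCC827 for 16 members below 0 (background 22.5%) and 25 above 0 (21.3%) in EBC-1, and for 11 (20.3%) and 33 (24.9%) in MKN-45. H2AX, H2AZ1, H4C3, H2AC20, H1-2, H2BC5, H2AC8, H2AC6, H2BC8, H3C10, H3C4 and H2BC4 were called in both by the probe sets given above.

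Genes that make, carry and place histones were set beside these values. Of 17 genes of histone mRNA transcription and 3′-end processing, 9 and 11 were called lower in EBC-1 at 24 h and 48 h (background 27.8% and 29.5%) and 1 higher (28.6% and 29.4%). In MKN-45 10 and 11 were lower (25.8% and 26.8%) and 1 higher (29.8% and 31.5%). SLBP, the stem-loop binding protein, fell by 1.02 ± 0.15 and 1.08 ± 0.15 in EBC-1 and by 1.20 ± 0.15 and 1.10 ± 0.15 in MKN-45 (adjusted p at most 2.7e-06). ERI1, an exonuclease that trims the stem-loop end, fell by 1.54 ± 0.10 and 1.0 ± 0.10 at 48 h. LSM10, a subunit of the U7 particle that guides the cut, fell by 1.08 ± 0.06 and 0.30 ± 0.06 at 48 h, and CPSF3, the nuclease that makes the cut, by 0.92 ± 0.05 and 0.64 ± 0.05. NPAT, the coactivator of clustered histone genes, was not called in any of the 4 (0.23, 0.30, -0.31 and -0.11), and HINFP, a factor for H4 genes, rose by 0.47 ± 0.06 to 0.78 ± 0.06. In HCC827 4 of the 17 were called lower at 48 h (background 8.46%), among them LSM10 (-0.59 ± 0.06, adjusted p = 1.22e-07).

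Of 24 histone chaperones and partners, 18 and 16 were lower in EBC-1 (background 27.8% and 29.5%) and 2 higher (28.6% and 29.4%). In MKN-45 16 and 15 were lower (25.8% and 26.8%) and 2 and 4 higher (29.8% and 31.5%). HJURP, the chaperone of the centromeric H3 variant CENPA, changed by -3.96 ± 0.09 and -4.12 ± 0.09 at 48 h, and CENPA itself by -6.18 ± 0.15 and -4.80 ± 0.15. ASF1B, which hands over new H3 and H4, changed by -2.57 ± 0.11 and -3.17 ± 0.11, and NASP, which holds soluble H3 and H4, by -1.0 ± 0.05 and -1.14 ± 0.05. CHAF1A and CHAF1B, subunits of the replication-coupled assembly factor CAF-1, changed by -1.28 ± 0.11 to -1.84 ± 0.18 at 48 h. ASF1A fell in EBC-1 (-0.74 ± 0.14) and rose in MKN-45 (0.64 ± 0.14), and ATRX rose in both (0.75 ± 0.10 and 0.64 ± 0.10). Of 5 further variants tested, H2AZ2, which encodes a second H2A.Z, fell by 0.60 ± 0.08 in EBC-1 at 48 h (adjusted p = 7.72e-07) and was at -0.17 ± 0.08 in MKN-45 (adjusted p = 0.07). All 16 S-phase and proliferation genes tested, such as PCNA, RRM2 and CCNA2, were called lower in all 4 comparisons (background 14.9%), with medians of -2.28, -2.64, -2.79 and -2.35, and 7 of 16 were lower in HCC827 at 48 h (background 8.46%). H2AX, H2AZ1, H4C3 and H2AC20 had the sign of these genes, and the 28 probe sets higher in all 4 comparisons had the opposite sign. Both sets of histone probe sets were picked by their sign, and the fall of the S-phase genes was known beforehand, so this describes the values and tests nothing. The part of fewer cycling cells in the histone values was not tested.

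**Figure D5:**
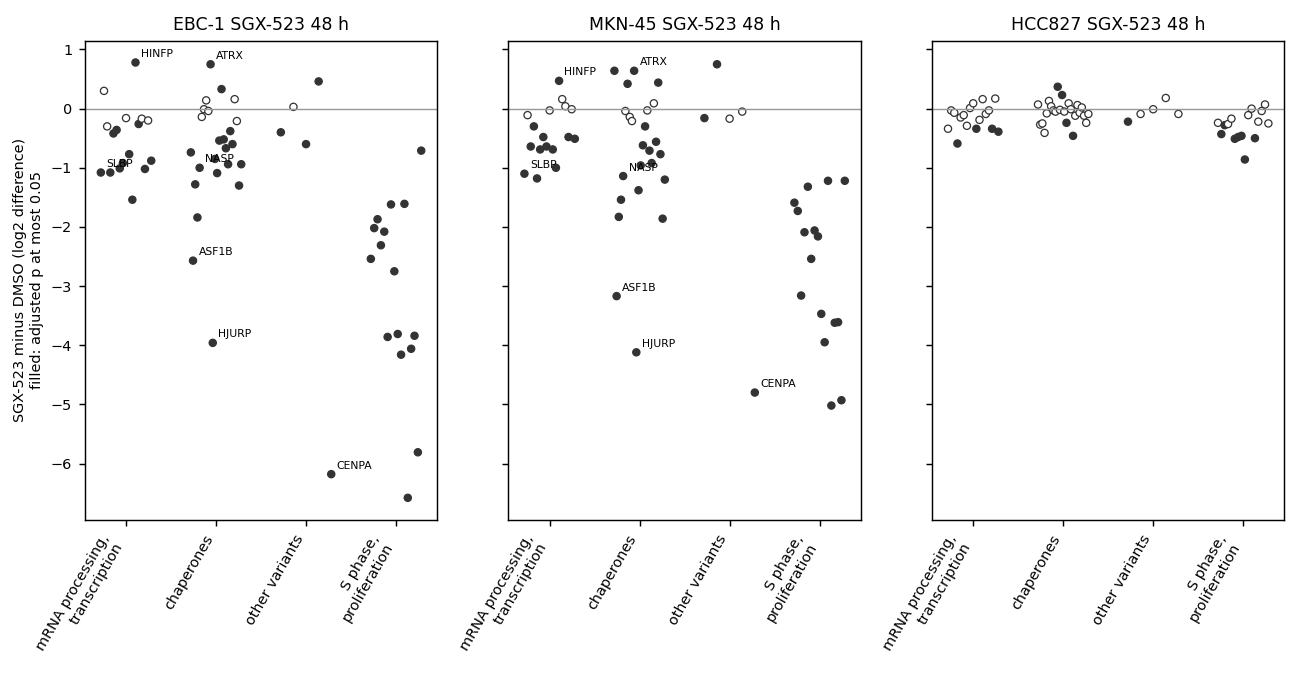
Difference of mean log2 values after 48 h of SGX-523 (vertical axis) in each line for genes of histone mRNA processing and transcription, histone chaperones, other histone variants, and S phase and proliferation; each point is a gene by its brightest probe set, filled where the adjusted p is under 0.05. Most genes lie below 0 in EBC-1 and MKN-45, CENPA (-6.18 and -4.80) and HJURP (-3.96 and -4.12) far below, and points in HCC827 lie between -0.86 and 0.37.

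The 80 members below the filter were at log2 values of 2.13 to 6.41, with a median of 3.42. They included all probe sets of 7 H1 genes, 8 H2A, 10 H2B, 6 H3 and 9 H4 genes and the 1 probe set of H3-3A alone. Their differences had medians of 0.06 and 0.08 in EBC-1 and 0.08 and -0.04 in MKN-45, with a highest of 1.81 in MKN-45 at 48 h. With no filter, 19 and 18 of the 135 members were lower and 36 and 44 higher in EBC-1 (17.4%, 18.4%, 18.3% and 19.7% of all probe sets). In MKN-45 they were 13 and 19 lower and 49 and 44 higher (16.3%, 17.2%, 19.8% and 20.9%). At such signals no statement is made on whether these genes are expressed.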

How the data were processed

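RNA of 27 cell line samples (9 groups of 3) was hybridised to 1-colour Affymetrix 3′ expression arrays. The authors deposited log2 values for 49395 probe sets. Per the submitters' processing notes MAS5 was among their tools, in a role not stated. How the values were normalized is not given in the sources used. No further between-array normalization was applied. In the platform annotation 44988 probe sets have 1 gene symbol, 1832 several, 2473 none, and 102 are controls. Probe sets at or above their array's median on at least 3 arrays were kept (29694). Group means were fitted with limma 3.58.1 (R 4.3.3) over all 27 arrays, with 18 residual degrees of freedom and an intensity trend. P-values were adjusted by Benjamini-Hochberg over all kept probe sets, with a threshold of 0.05. The arrays are labelled biological replicates with no further detail, so p-values measure the spread between these arrays.

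The members and gene lists were chosen with earlier results of these data known. Array values are given for H2AX, H2AZ1 and H3-3B by their brightest kept probe set, and for up to 5 genes with the largest rise and 5 with the largest fall per comparison in EBC-1 and MKN-45, among those called whose groups do not overlap and whose higher mean is above the array median. From each other list up to 6 genes with the smallest adjusted p were open to naming, and ERI1, LSM10, CPSF3, NPAT, HINFP, ASF1A, ATRX, NASP and H2AZ2 were partly chosen for their role after their values were seen. Alternatives were quantile normalization, centring on the array median or on spiked-in controls, other filters, no trend, array weights, separate fits per line, a replicate block, members with 1 gene only, 1 or the mean probe set per gene, and leaving out arrays. The fit was tested on simulated data with known changes. Same-numbered arrays did not deviate together (r from -0.23 to 0.19 over 27 pairs, 3 of them over 0.1), and no arrays held identical values. No genome was used, and sequences came from RefSeq windows.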

Additional observations from a re-analysis of the deposited data

Results flagged for a closer look

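Responses to SGX-523 of the named genes that differed between cell lines in a test of the difference itself (limma, adjusted p under 0.05) are listed by contrast, as differences of log2 differences with n = 3 arrays per group. All contrasts within a line rest on its 3 DMSO arrays.

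EBC-1 minus MKN-45 at 24 h was -0.90 for H2AX, -0.88 for H3-3B, -0.43 for H4C3, 0.34 for H1-2, -0.51 for H2BC5, -0.91 for H2BC8, -1.61 for H3C4 and -1.14 for H2BC4. At 48 h it was -1.18 for H2AX, -0.42 for H2AZ1, -1.03 for H3-3B, -0.68 for H2AC20, -0.16 for H4C3, 1.13 for H1-2, -0.49 for H2BC5, -1.88 for H3C4 and -1.47 for H2BC4. For H3-3B the 2 lines moved in opposite directions.

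EBC-1 minus HCC827 at 48 h was -2.73 for H2AX, -1.81 for H2AZ1, -0.47 for H3-3B, -1.46 for H2AC20, -1.61 for H4C3 and -0.45 for H3C7. On the other side it was 2.94 for H1-2, 2.50 for H2BC5, 2.55 for H2AC8, 1.63 for H2AC6, 1.62 for H3C10, 1.90 for H2BC8, 0.81 for H3C4 and 0.92 for H2BC4.

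MKN-45 minus HCC827 at 48 h was -1.54 for H2AX, -1.39 for H2AZ1, -0.78 for H2AC20, -1.45 for H4C3 and -0.54 for H3C7. It was 0.56 for H3-3B, 1.81 for H1-2, 2.99 for H2BC5, 2.88 for H2AC8, 2.25 for H2AC6, 1.13 for H3C10, 2.07 for H2BC8, 2.69 for H3C4 and 2.38 for H2BC4. HCC827 arrays seem to have been scaled apart, and these contrasts compare changes within each line.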

How the results depend on the processing

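The 14 named genes were followed over all settings in the comparisons with DMSO of EBC-1 and MKN-45 only. Of 2112 values, 2105 kept their direction and side of the threshold, 5 were weaker, 2 stronger and 0 reversed. Leaving out an array outside a comparison cannot change its difference, only the shared spread. Many of these values were thus bound to keep their direction. Of 298 counts of members called (lower/higher, against 55 tested in the fit reported) under settings other than leaving out 1 replicate, 262 stayed within 1.5 times and 36 moved; unless stated below, the cause was not tested. Centring on spiked-in controls gave 20 higher in EBC-1 at 48 h, 0 lower and 1 higher in HCC827 at 48 h, 0 higher (EBC-1), 7 lower and 2 higher (MKN-45) and 0 lower (HCC827) for 48 h minus 24 h, 0 higher for EBC-1 minus MKN-45 at 24 h and 16 higher for EBC-1 minus HCC827. Without a filter, which tests 135 members, MKN-45 had 13 lower at 24 h and 19 at 48 h, HCC827 2 lower at 48 h, EBC-1 4 higher for 48 h minus 24 h, and EBC-1 minus MKN-45 3 higher at 48 h. The 75th percentile filter, which tests fewer members, gave 19 higher in EBC-1 and 7 lower in MKN-45 at 48 h, and for 48 h minus 24 h 1 higher in EBC-1 and 7 lower in MKN-45. Separate fits per line gave 0 lower and 1 higher in HCC827 at 48 h, and for 48 h minus 24 h 11 lower and 4 higher in EBC-1, 8 higher in MKN-45 and 0 and 0 in HCC827. Array weights gave 9 lower and 13 higher in HCC827 at 48 h, for 48 h minus 24 h 10 lower in EBC-1, 8 higher in MKN-45, and 4 lower and 3 higher in HCC827, for EBC-1 minus MKN-45 4 higher at 24 h and 3 at 48 h, and 11 lower for DMSO. Without the intensity trend HCC827 had 1 lower for 48 h minus 24 h, and with members of 1 gene only MKN-45 had 2 higher. Leaving out 1 array in turn, called lower ran from 13 to 13 and higher from 29 to 30 in EBC-1 at 24 h, 14 to 16 and 31 to 33 at 48 h, 8 to 8 and 35 to 39 in MKN-45 at 24 h, 11 to 11 and 33 to 36 at 48 h, 0 to 12 and 0 to 5 in HCC827 at 24 h, and 0 to 8 and 2 to 10 at 48 h. For 48 h minus 24 h they ran from 5 to 9 and 1 to 2 in EBC-1, 10 to 15 and 3 to 9 in MKN-45, and 1 to 5 and 2 to 9 in HCC827. For EBC-1 minus MKN-45 they ran from 23 to 29 and 1 to 4 at 24 h and 24 to 31 and 1 to 4 at 48 h, for EBC-1 minus HCC827 14 to 16 and 25 to 26, for MKN-45 minus HCC827 10 to 13 and 32 to 33, and for DMSO 6 to 11 and 29 to 32. Leaving out HCC827 SGX-523 24 h replicate 3 moved 7 of these ranges' counts by over 1.5 times; replicates 1 and 2 of that group, HCC827 DMSO replicates 1 and 2 and the 3 HCC827 48 h replicates moved others within HCC827. The small counts on 1 side of 48 h minus 24 h and of EBC-1 minus MKN-45 also moved without EBC-1 24 h replicates 1 or 2, EBC-1 48 h replicate 3, EBC-1 DMSO replicate 2, MKN-45 DMSO replicates 1 or 3, MKN-45 24 h replicate 3, or MKN-45 48 h replicates 1 or 3. Replicate numbers do not pair these arrays; with the number as a block, EBC-1 had 13 lower and 30 higher at 24 h and 15 and 33 at 48 h, MKN-45 8 and 37, then 11 and 34, and HCC827 0 and 0, then 1 and 4, and no count moved by over 1.5 times. The 3 arrays of each group and signals near the array median limit the precision of the smaller differences.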
